A study of Homo sapiens with 8 samples.

Results

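The genes of the cytosolic ribosomal proteins were followed in MDA-MB-231, an established triple-negative breast cancer cell line of mesenchymal character. A gene was a member if a probe set carried its symbol alone and the symbol was RPS or RPL followed by a number, with or without the endings A, X, L or L1, or was RPLP0, RPLP1, RPLP2 or RPSA. This gave 53 of the 22109 genes tested: 19 of the small subunit, 27 of the large subunit and 7 paralogs, which are copies that resemble a ribosomal protein gene. A further 21 ribosomal protein genes lay only on probe sets that also carried other symbols, in most cases of small nucleolar RNAs, and were not analysed here as members. Where a member had several probe sets, as for RPS18, RPS27 and RPS28, the one with the highest mean over the arrays was used. Whether that probe set lies at the gene itself or at a copy elsewhere was not tested, and it is in doubt for RPS27 and RPS28.

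Affymetrix Human Gene 2.1 ST arrays measured total RNA from 8 samples: 3 untreated controls, 3 at a low dose and 2 at a high dose of a plant preparation, all after 24 h. The titles and the treatment protocol give wild yam root extract, made up in ethanol, at 15 µg/mL for the low and 30 µg/mL for the high group. Their source names and treatment fields say otherwise: the low samples carry Boswellia serrata extract (128 µg/mL), and the high samples carry 3-O-acetyl-β-boswellic acid (46 µg/mL). The same samples fall together either way, so the agent is unsettled while the membership of the groups is not. By the treatment fields, low and high would be different preparations and not 2 doses of 1 agent. Low dose and high dose are therefore used here as group names from the titles, and an order of dose between them is not settled. The labels call the controls untreated and do not say that they received ethanol. They do not say either that replicates were separate cultures, so p-values measure only the spread between these samples, which may be technical. All 7 markers of the line lay at 5.47 or above on every array. VIM lay between 8.68 and 9.10 and AXL between 8.55 and 9.67 on the log2 scale, while ESR1 lay between 1.60 and 2.18 and the leukocyte gene PTPRC between 0.94 and 1.40. EPCAM, an epithelial gene listed as low in this line, lay higher, between 4.40 and 5.58. The fibroblast marker COL1A1 was called higher at the low dose (0.76 ± 0.16; limma adjusted p = 0.0262), while DCN and LUM lay between 0.96 and 2.17, and its part in the results was not tested.

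The ribosome translates messenger RNA with a small subunit, which reads the message, and a large subunit, which joins amino acids. Each is built from ribosomal RNA and many small, abundant proteins, most of them encoded by a single active gene with many silent pseudogene copies. Messages of these proteins typically begin with a C and a run of pyrimidines, the terminal oligopyrimidine (TOP) tract, through which mTOR and LARP1 control their translation and stability together. A few members have paralogs, some of them made mainly in other tissues, such as RPL3L in striated muscle and RPL10L in testis.

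A TOP tract was found at an annotated transcript start of most but not all members searched. The bases around the start are shown for the genes the results turn on and for paralogs beside their parent genes. They come from RefSeq's GRCh38.p14, 15 bases before the start and 15 from it, on the transcript's strand. Capitals mark the tract, a C at the first transcribed base followed by at least 4 bases that are C or T.
RPS25 (chr11:119018329-119018358, minus strand): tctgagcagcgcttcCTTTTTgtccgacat
RPL22L1 (chr3:170870181-170870210, minus strand): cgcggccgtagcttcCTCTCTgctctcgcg
RPL22 (chr1:6199581-6199610, minus strand): tagttcgctcacctcCCTTTCTaactccgc
RPL26 (chr17:8383179-8383208, minus strand): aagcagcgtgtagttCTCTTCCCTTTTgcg
RPL26L1, upstream start (chr5:172958714-172958743, plus strand): agtcttccaggggtcggcgaacgaaacgcg
RPS27 (chr1:153990747-153990776, plus strand): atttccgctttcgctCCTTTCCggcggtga
RPS27L (chr15:63157463-63157492, minus strand): aagttgatgccgagcgcagatcgcttgcag
RPL7L1 (chr6:42879601-42879630, plus strand): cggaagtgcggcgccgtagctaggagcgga
RPL39 (chrX:119791616-119791645, minus strand): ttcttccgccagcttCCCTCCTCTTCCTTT
RPS4X (chrX:72277234-72277263, minus strand): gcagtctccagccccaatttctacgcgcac
RPL29 (chr3:51995881-51995910, minus strand): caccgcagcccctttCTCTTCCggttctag
Of the 53 members, 46 had a promoter entry, and 31 of those (67.4%) held the tract at an annotated start, against 5.14% of the 27305 genes in the table. The tract was present in 12 of 18 small subunit genes, 18 of 23 large subunit genes and 1 of 5 paralogs. That paralog was RPL22L1, whereas RPL26L1, RPS27L and RPL7L1 lacked it, as did RPL10L. A start annotated a few bases off would hide a tract from this search.

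Ribosomal protein messages were lower on the treated arrays by a small amount that most members shared, and the array level over all genes differed too. The median log2 level of the small subunit genes was 6.21, 6.26 and 6.09 on the control arrays, 5.91, 5.82 and 5.56 on the low arrays and 5.59 and 5.41 on the high arrays. All 5 treated arrays lay below all 3 controls. For the large subunit genes it was 5.71, 5.69 and 5.26 on the control arrays, 5.53, 5.40 and 5.02 on the low arrays and 5.25 and 5.21 on the high arrays. Here control 3 lay among the treated arrays. The 75th percentile over all genes was 4.92, 4.92 and 4.73 on the control arrays, 4.94, 4.90 and 4.54 on the low arrays and 4.80 and 4.54 on the high arrays, so control 3, low 3 and high 2 were the dimmest arrays of their groups overall. The part of this array level in the members' shift was not tested, and the deposited values carry no measure of the RNA content of a cell.

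**Figure D1:**
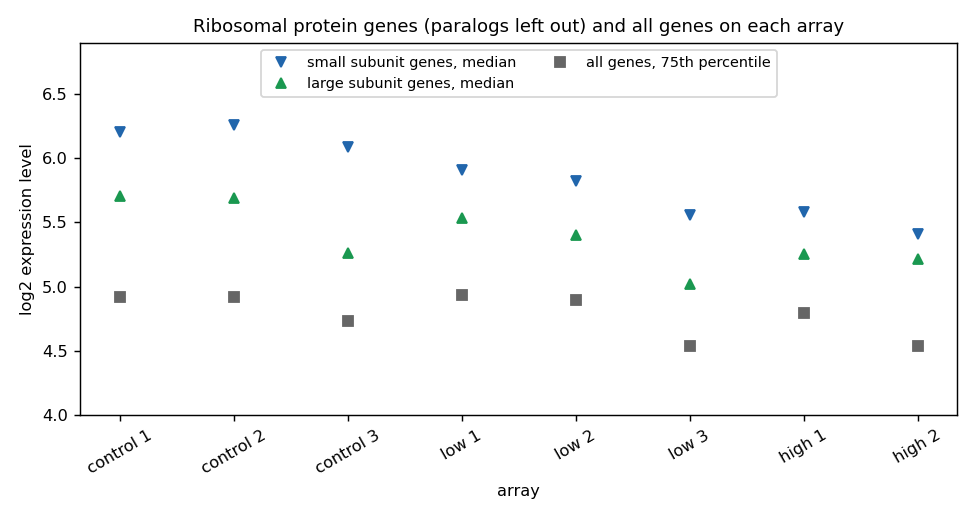
Median log2 expression level of the small subunit genes (downward triangles) and large subunit genes (upward triangles), and the 75th percentile of all genes (squares), on each of the 8 arrays. The small subunit medians of the 5 treated arrays, 5.41 to 5.91, lie below the 3 controls, 6.09 to 6.26, while low 3 and high 2 are also the lowest arrays over all genes.

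At the low dose RPL22L1 and RPS25 fell and no ribosomal protein gene rose. RPL22L1 encodes a paralog of the RNA-binding large subunit protein of RPL22, and RPS25 a small subunit protein that some viral and cellular messages need for internal initiation. These were 2 of 53 members called lower, by limma at a Benjamini-Hochberg adjusted p under 0.05 over all genes, where 1.81% of all genes were called lower and 1.19% higher. Of the 11055 genes at or above the median level, 384 were called lower and 254 higher. Among the 50 members there it was 2 lower and 0 higher. The median difference of low minus control over the members was -0.18 on the log2 scale, against -0.04 over all genes and -0.07 over the 11055 genes at or above the median level, to which 50 members belonged. It lay below 0 in 47 of 53 members, against 57.4% of all genes, and in 45 of the 50 brighter members, against 58.1% of the brighter genes. This count was 38 of 53 without low 3 and 40 of 53 after subtraction of each array's 75th percentile.

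RPL22L1 had a log2 level of 3.80, 3.74 and 3.54 on the low arrays, against 4.75, 4.72 and 4.56 on the control arrays. The 2 groups stood apart by more than the range within either. The difference was -0.98 ± 0.15 (SE; limma over all 8 arrays; adjusted p = 0.00588), a 1.98-fold lower level, and the call held under all 19 alternative settings, with adjusted p between 0.000163 and 0.0326. RPS25 had 5.98, 5.90 and 5.39 on the low arrays, against 6.62, 6.48 and 6.46 on the control arrays. Low 3 was the lowest of them, and the groups did not overlap. Its difference was -0.76 ± 0.18 (limma adjusted p = 0.0450), 1.69-fold lower, and this call ended under 11 of 19 settings, among them the removal of any single array and a fit of the 2 groups alone (adjusted p = 0.0711).

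Other members with large negative differences at the low dose did not pass. They were RPL39L (-0.75 ± 0.25; limma adjusted p = 0.174), RPS26 (-0.57 ± 0.20; 0.205), whose protein sits where the message leaves the small subunit, and RPL39 (-0.52 ± 0.22; 0.314), whose protein lines the exit tunnel of the large subunit. RPS26 had 4.09, 4.11 and 3.71 on the low arrays, against 4.97, 4.38 and 4.27 on the control arrays, a narrow separation. At the other end stood RPS16 (0.18 ± 0.16), RPS28 (0.14 ± 0.28), RPL28 (0.13 ± 0.16), RPS27L (0.10 ± 0.16) and RPS15 (0.05 ± 0.19), with adjusted p from 0.730 to 0.955. The low and control arrays did not overlap, with low below control, in 13 of 53 members, against 13% of all genes and 18.8% of the genes at or above the median level. Above control the count was 0, against 7.03% of all genes. By subunit, the small subunit genes had a median of -0.23 and 4 of 19 at an unadjusted p under 0.05, and the large subunit genes a median of -0.17 and 1 of 27, all of them lower. Over all members these were 7 lower and 0 higher, where 8.77% of all genes were lower and 5.38% higher at that p.

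**Figure D2:**
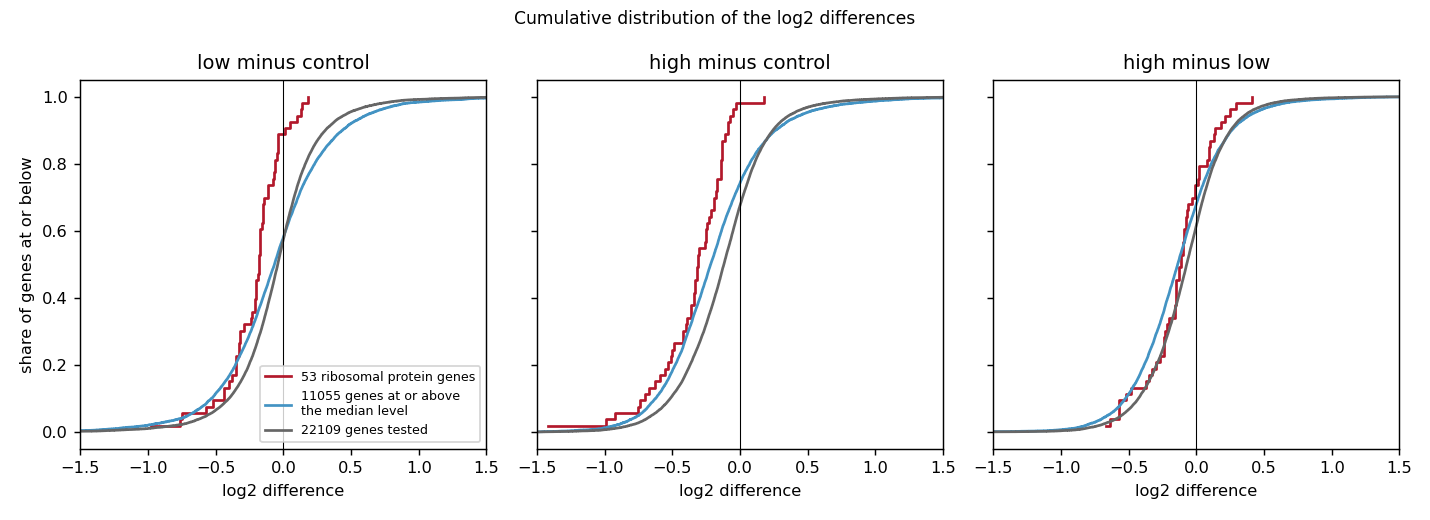
Cumulative share of genes (vertical axis) at or below each log2 difference (horizontal axis) for the 53 ribosomal protein genes (red), the genes at or above the median level (blue) and all genes tested (grey) in each comparison. The members lie to the left of all genes at the low dose (medians -0.18 and -0.04) and at the high dose (-0.31 and -0.12), and the lines nearly meet for high minus low (-0.11 and -0.07).

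At the high dose RPL39L fell, and differences were negative in 52 of the 53 members, RPL3L (0.18 ± 0.25) being the exception. That count depended on the scaling: it was 39 of 53 after quantile normalization and 37 of 53 after subtraction of each array's 75th percentile. RPL39L encodes a paralog of the tunnel protein of RPL39 that is best known from male germ cells. It was the only member called, 1 of 53, where 0.389% of all genes were called lower and 0.425% higher. Of the 11055 genes at or above the median level, 81 were called lower and 90 higher. Among the 50 members there it was 1 lower and 0 higher. The median difference of high minus control was -0.31 over the members, against -0.12 over all genes and -0.22 over the genes at or above the median level, and 67.4% of all genes and 74.1% of those brighter genes had negative differences. At an unadjusted p under 0.05 there were 13 members lower, against 11.4% of all genes, and 0 higher, against 3.03%. After quantile normalization the medians were -0.09 over members and -0.02 over all genes, and after subtraction of the 75th percentile they were -0.12 and 0.07.

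RPL39L had a log2 level of 2.36 and 2.42 on the high arrays, against 3.87, 3.24 and 4.32 on the control arrays. The high arrays agreed closely with each other, whereas the controls spanned over 1 log2 unit with control 3 at the top. The difference was -1.42 ± 0.28 (limma adjusted p = 0.0490), and the call ended under 10 of 19 settings. These included quantile normalization (-1.32, adjusted p = 0.0589) and the removal of control 1, of either high array, or of any single low array. The levels on the high arrays lay below the median of all genes on those arrays (2.71 and 2.68) and could not be told from no signal, so no fold is given. RPL39L is a close copy of its parent, and how far the probe set tells them apart was not tested.

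RPS25 had 5.56 and 5.50 on the high arrays, against 6.62, 6.48 and 6.46 on the control arrays. The groups stood far apart, with an SD of 0.05 on the high and 0.09 on the control arrays, yet its limma adjusted p over all genes was 0.05004, just past the threshold. The difference was -0.99 ± 0.20, a 1.98-fold lower level, and the gene was called under 10 of 19 settings, with differences between -1.09 and -0.75. RPS25 was thus 0.76 lower at the low dose and 0.99 lower at the high dose on the log2 scale.

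The next members were RPS15A (-0.92 ± 0.26; limma adjusted p = 0.145), RPL29 (-0.75 ± 0.23; 0.170) and RPS4X (-0.74 ± 0.20; 0.144), none of which passed. RPS15A, a small subunit protein gene, had 3.87 and 4.11 on the high arrays, against 4.86, 5.37 and 4.50 on the control arrays. RPS4X, the X-linked small subunit gene that lacks a TOP tract at its annotated start, had 5.30 and 5.34 on the high arrays, against 6.21, 6.26 and 5.71 on the control arrays. RPL29 of the large subunit had 4.39 and 3.87 on the high arrays, against 4.90, 5.10 and 4.66 on the control arrays. In all 3 the groups did not overlap, and in each control 3 was the control nearest to the high arrays. RPL22L1 had 3.92 and 4.04 on the high arrays, with a difference of -0.70 ± 0.17 from the controls (adjusted p = 0.0933).

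The members with the highest differences at the high dose, after RPL3L, were RPS27L (-0.03 ± 0.18), RPS29 (-0.05 ± 0.17), RPL27 (-0.07 ± 0.19) and RPS19 (-0.09 ± 0.18). RPS19, of the small subunit and mutated in Diamond-Blackfan anemia, had 8.71 and 8.59 on the high arrays, against 8.56, 8.77 and 8.89 on the control arrays, so the groups overlapped. High arrays lay wholly below controls in 30 of 53 members, against 22.9% of all genes and 30% of the genes at or above the median level. They lay wholly above in 0 members, against 7.07% of all genes. The small subunit genes had a median of -0.32 and the large subunit genes of -0.31. Members with a TOP tract at an annotated start had a median of -0.31 and the 15 with an entry but no tract found there -0.36. At the low dose these medians were -0.17 and -0.18. A start annotated a few bases off would put a gene in the wrong class, so this split may not follow the tract itself.

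**Figure D3:**
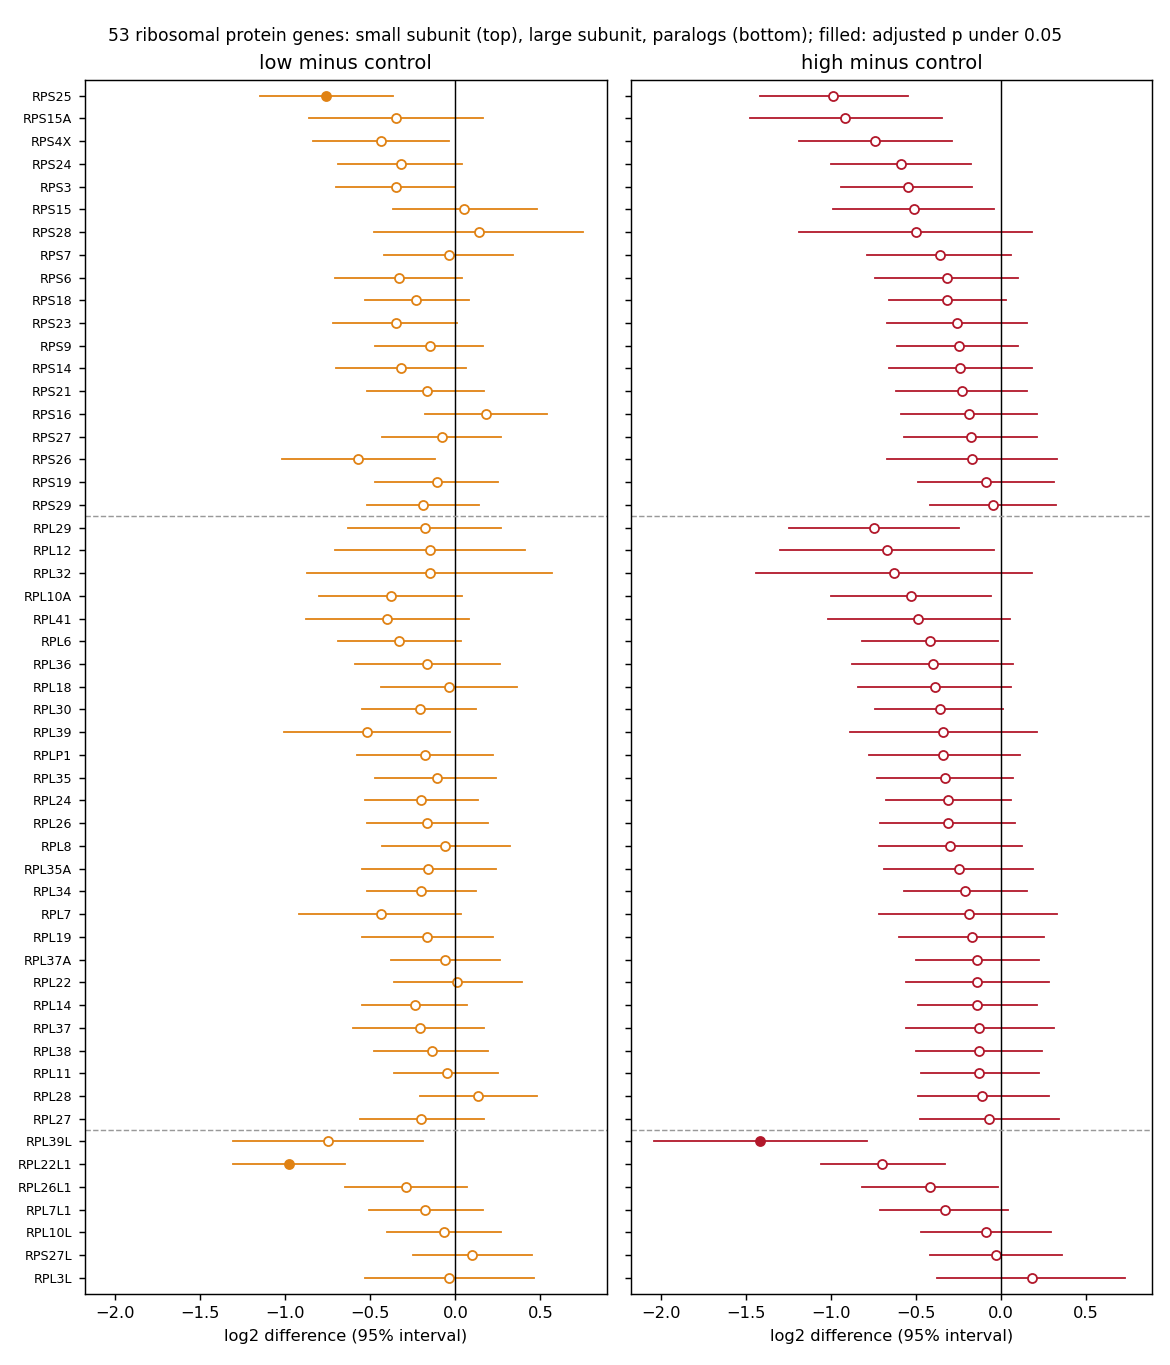
Log2 difference from control (horizontal axis, dot) with its 95% interval (line) for each of the 53 members at the low dose (left) and the high dose (right), in the order of the high dose within each class. Filled dots mark an adjusted p under 0.05: RPL22L1 (-0.98) and RPS25 (-0.76) at the low dose and RPL39L (-1.42) at the high dose. Most other dots lie left of 0, and most of their intervals include it.

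Of the single arrays left out, control 3 moved the high-dose count most. Without it 8 members were called lower: RPL22L1, RPL32, RPL39L, RPS15, RPS15A, RPS25, RPS28 and RPS4X. Calls rose over all 22109 genes as well, with 740 lower without control 3, against 86 with all arrays. RPL32, of the large subunit, had 3.88 and 3.85 on the high arrays, against 5.12, 4.80 and 3.55 on the control arrays. RPS28, of the small subunit, had 9.43 and 9.29 on the high arrays, against 10.20, 10.30 and 9.10 on the control arrays. In both genes control 3 lay below the high arrays and the other controls lay well above. RPS15, also of the small subunit, had 9.17 and 9.18 on the high arrays, against 9.87, 9.94 and 9.26 on the control arrays. With all arrays the differences were -0.63 ± 0.37 for RPL32, -0.50 ± 0.31 for RPS28 and -0.51 ± 0.21 for RPS15 (limma adjusted p = 0.460, 0.487 and 0.302). A second, dimmer probe set of RPS28 ran the other way, with a difference of 0.34. For low minus control it had 0.53, against 0.14 on the probe set used. The identifier of the probe set used falls between those of RPS3 and RPS25 on chromosome 11, whereas RPS28 lies on chromosome 19. That of the dimmer one falls between RPL36 and RPS19, both on chromosome 19. Which of them measures RPS28 and not a copy was not tested. Without control 1, high 1, high 2, low 1 or low 2 the count of called members was 0.

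**Figure D4:**
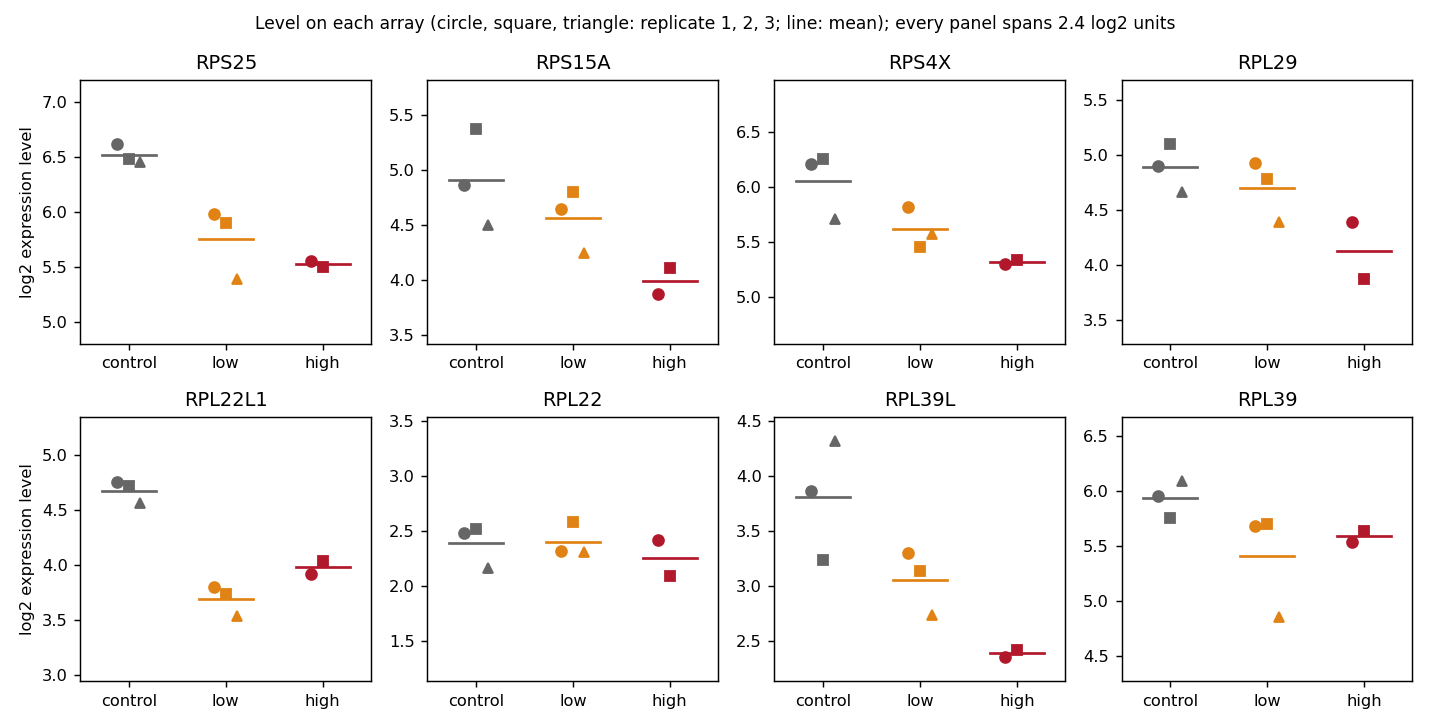
Log2 expression level (vertical axis) of 8 members on each array of the control, low and high groups, with replicate numbers as symbols and group means as lines. RPS25 and RPL22L1 separate the treated arrays from the controls, RPL39L is low on both high arrays (2.36 and 2.42), and RPL22 lies between 2.09 and 2.59 throughout. The levels of RPL22, and those of RPL39L on the high arrays, could not be told from no signal.

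Between the doses no member passed. For high against low, limma called 0 of 53 members, against 0 of all genes lower and 0.00452% higher, and at an unadjusted p under 0.05 there were 4 members lower, against 6.1% of all genes, and 0 higher, against 2.56%. The median of high minus low was -0.11 over the members, -0.07 over all genes and -0.14 over the genes at or above the median level, and its sign turned after quantile normalization and after subtraction of the 75th percentile (0.003 and 0.013). The most negative differences were those of RPL39L (-0.67 ± 0.28) and RPS28 (-0.64 ± 0.31), and the most positive that of RPS26 (0.41 ± 0.23). RPS28 had 9.43 and 9.29 on the high arrays, against 10.11, 10.12 and 9.77 on the low arrays. RPS26 ran the other way, with 4.41 and 4.34 on the high arrays, against 4.09, 4.11 and 3.71 on the low arrays. Differences were negative in 39 of 53 members, against 61.6% of all genes and 68% of the genes at or above the median level, but in 26 of 53 after either of those scalings. High arrays lay wholly below low arrays in 10 members, against 16.7% of all genes and 19.9% of the brighter genes, and wholly above in RPS26 and RPL22L1, against 8.77%. On the deposited scale, group means ran in the order control, low, high from top to bottom in 33 of 53 members, against 28.8% of all genes. This order was not counted for the brighter genes or after other scalings. It needs high below low, which held in only 26 of 53 members after quantile normalization or subtraction of the 75th percentile. The shared controls enter both differences from control, so these are not independent.

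Paralogs were set against their parent genes by the log2 difference of the pair on each array, since levels of different probe sets cannot be compared directly. Both genes had a probe set in 5 pairs. No pair passed the exact test, which could not reach the threshold with so few arrays. The most distinct pairs were RPL22L1 with RPL22 at the low dose and RPL39L with RPL39 at the high dose. RPL22L1 minus RPL22 was 1.48, 1.15 and 1.23 on the low arrays, against 2.26, 2.19 and 2.39 on the control arrays. The difference of -0.99 was made up of -0.98 for the paralog and 0.01 ± 0.17 for the parent. The probe set of RPL22 was dim, between 2.09 and 2.59, and could not be told from one without signal. What the parent did was thus not measured, and the pair adds little to the difference of RPL22L1 itself. An exact two-sided permutation test over arrays gave p = 0.1, the smallest that 3 against 3 arrays allow (0.375 adjusted over 15 tests). A limma fit of the pair difference beside all genes, chosen after seeing the data, gave an adjusted p of 0.0101 and a 95% interval from -1.37 to -0.62.

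At the high dose RPL22L1 minus RPL22 was 1.51 and 1.95, a difference of -0.56 from the controls (exact permutation p = 0.1; limma adjusted p = 0.214; interval -0.97 to -0.14). RPL39L minus RPL39 was -3.19 and -3.22 on the high arrays, against -2.09, -2.52 and -1.77 on the control arrays. The difference of -1.07 again reached only the smallest exact p of 0.1, with a limma adjusted p of 0.0613 and an interval from -1.57 to -0.58. On the low arrays this pair had -2.39, -2.57 and -2.13, overlapping the controls. RPL39 itself had 5.54 and 5.64 on the high arrays, against 5.96, 5.76 and 6.09 on the control arrays.

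The remaining pairs differed less between groups. RPL26L1 minus RPL26 differed by -0.12 at the low dose and -0.11 at the high dose, with limma intervals from -0.49 to 0.25 and from -0.52 to 0.30. RPS27L minus RPS27 differed by 0.17 (-0.18 to 0.53) and 0.15 (-0.24 to 0.55), and by 0.10 and 0.02 with averaged probe sets. The identifier of the RPS27 probe set used falls between those of RPL41 and RPL6 on chromosome 12, whereas RPS27 lies on chromosome 1. It changed by -0.08 and -0.18, and the other RPS27 probe set by 0.07 and 0.08. Which of them measures RPS27 and not a copy was not tested. The probe set of RPS27L was dim, at 2.69 to 3.07, near the median level of all genes (2.75). A change of RPS27L may thus be missed here. RPS27L is a p53 target, and RPS27 encodes its small subunit counterpart. RPL7L1, a nucleolar assembly factor, minus RPL7 differed by 0.27 (-0.15 to 0.68) and -0.14 (-0.60 to 0.32). The probe set of RPL7 was as dim as that of RPL22, with levels of 1.41 to 2.29, and the same limit holds for it and for RPL10L. RPL3 and RPL10, the parents of RPL3L and RPL10L, had no probe set of their own, so those pairs were not analysed here.

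**Figure D5:**
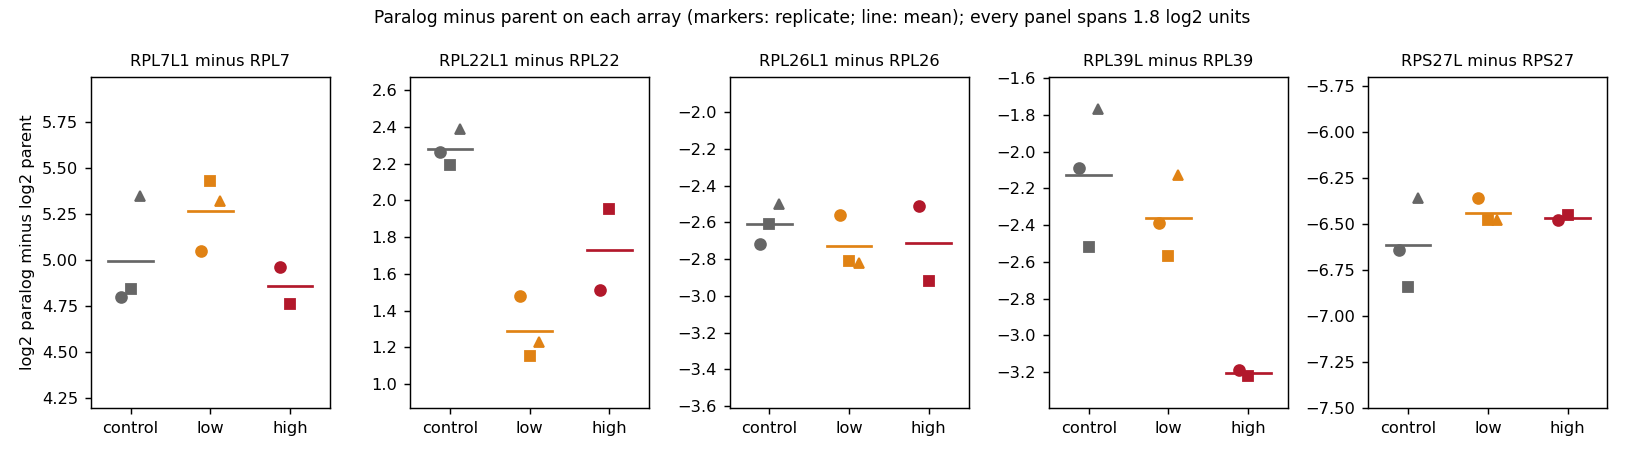
Log2 level of the paralog minus that of its parent gene (vertical axis) on each array for 5 pairs, with replicate numbers as symbols and group means as lines. RPL22L1 minus RPL22 lies at 1.15 to 1.48 on the low arrays and 2.19 to 2.39 on the control arrays, and RPL39L minus RPL39 is lowest on both high arrays (-3.19 and -3.22). The levels of RPL22 and RPL7, and those of RPL39L on the high arrays, could not be told from no signal.

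Other genes of the translation machinery were taken from lists drawn up by their known roles, with earlier results of these data known. Of 18 other messages with a TOP tract, such as translation factors, 11 were measured and 0 were called by limma at either dose. At an unadjusted limma p under 0.05, 3 were lower at the low dose, against 8.77% of all genes, and 2 at the high dose, against 11.4%. Their medians were -0.27 at the low and -0.28 at the high dose. Among 36 of 40 ribosome biogenesis genes, whose products process ribosomal RNA and assemble subunits in the nucleolus, 0 were called at the low dose and 1 was called lower at the high dose, where 0.389% of all genes were. At an unadjusted p under 0.05, 13 were lower at the low dose, against 8.77% of all genes, and 20 at the high dose, against 11.4%. Their medians of -0.36 and -0.56 lay below those of the ribosomal protein genes, with 33 and 35 of 36 differences negative, against 57.4% and 67.4% of all genes. Of the genes at or above the median level, 58.1% and 74.1% were negative, with medians of -0.07 and -0.22. Values of this list under other scalings are not given here, and the part of the array level in its shift was not tested. The called gene was MRTO4, an assembly factor of the large subunit's stalk, with 5.89 and 5.39 on the high arrays, against 6.91, 6.71 and 6.68 on the control arrays (-1.13 ± 0.22; limma adjusted p = 0.0418). Of 23 kinases and regulators of translation, 0 were called at either dose. At an unadjusted limma p under 0.05, 2 were lower and 3 higher at the low dose, against 8.77% and 5.38% of all genes. At the high dose 5 were lower and 0 higher, against 11.4% and 3.03%. Their medians were 0.06 and -0.29. Differences ran from -0.66 to 0.80 at the low dose and from -0.98 to 0.41 at the high dose.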

How the data were processed

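Total RNA of 8 samples was hybridised to Affymetrix Human Gene 2.1 ST arrays, 1 per sample. The deposited log2 values of 53617 probe sets were made by the authors with the Transcriptome Analysis Console, per the submitters' processing notes. Its version, summarization and normalization were not given in the sources used here, and the log base was inferred from the range of the values. Groups were taken from the sample titles. The platform annotation gave 23558 probe sets with 1 symbol, 2155 with several and 27904 unnamed here. Of the first, 22271 matched RefSeq by Entrez identifier and 3 symbols were updated. The probe set with the highest mean was kept for each of 22109 genes.

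Group means of the 8 arrays were compared in limma 3.58.1 under R 4.3.3 (lmFit, eBayes; 5 residual and 6 prior degrees of freedom). P-values were adjusted by Benjamini-Hochberg over all genes, and calls needed an adjusted p under 0.05. Paralog pairs were tested by exact permutation over arrays, adjusted over 15 tests. Tests on simulated data with 200 changed genes recovered 52% of genes changed 2-fold for low against control and 40% for high against control. The simulated noise was independent between genes and held no shift in the level of a whole array. Recovery in the real data, where arrays differed in brightness, may therefore be different. The number of arrays limits the precision.

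Named members are those called, the 5 most negative and 5 most positive at each dose, and paralogs with their parents. For other translation genes, called ones are named. Others named were chosen after their values were seen. Members and lists were chosen with earlier results of these data known. Deviations of control and low arrays of the same replicate number correlated at 0.10, 0.15 and 0.20 across genes. Those of differing number ran from -0.18 (control 3 with low 2) to 0.12 (control 1 with low 2). The reported fit did not pair the arrays, and a replicate block was tried only as an alternative. For the high arrays the numbers gave no consistent sign: 0.09 and 0.21 for high 1 with control 1 and low 1, and -0.05 and -0.18 for high 2 with control 2 and low 2. With 2 arrays the deviations of high 1 and high 2 mirror each other. Alternatives were quantile normalization, centring on the median or 75th percentile, a filter on dim genes, all probe sets tested, averaged probe sets, the replicate block, fits of the groups compared alone, array weights, a trended robust prior and arrays left out.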

Additional observations from a re-analysis of the deposited data

How the results depend on the processing

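At the low dose 2 members were called. The count was 1 with all probe sets tested, with the 2 groups alone and with the trended robust prior, and 6 with array weights. Leaving out 1 array gave 1 to 2, with RPL22L1 in each. The replicate block changed no call there (RPL22L1 limma adjusted p = 0.00435, RPS25 limma adjusted p = 0.0220). Calls over all 22109 genes moved with the setting as well. At the low dose 400 genes were called lower as deposited and 1094 with array weights. At the high dose 86 genes were called lower as deposited, 769 with array weights, 1031 with the replicate block and 740 without control 3. At the high dose 1 member was called. The count was 2 after subtraction of array medians, with the dim genes removed and with averaged probe sets. It was 0 with all probe sets tested and with the 2 groups alone, 6 with array weights and 8 with the replicate block, a fit uncertain here because high 1 and high 2 gave correlations of opposite sign with their numbers. It was 9 without control 3, low 3 and high 2 together, and 0 to 8 when 1 array was left out, the 8 being without control 3. High against low gave 0 under all 19 settings.

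The median of the members at the high dose was -0.093 after quantile normalization and -0.125 after subtraction of 75th percentiles, against -0.314 as deposited. For high minus low those settings gave 0.003 and 0.013, against -0.110. Median differences at the low dose stayed between -0.252 and -0.082 under all 19 settings. Leaving out 1 array gave -0.252 to -0.082 at the low dose, -0.365 to -0.245 at the high dose and -0.199 to -0.053 for high minus low.

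With 1 array left out, RPL22L1 minus RPL22 ran from -0.78 to -0.34 for high against control and from 0.22 to 0.66 for high against low, and RPL26L1 minus RPL26 ran from -0.31 to 0.10 and from -0.19 to 0.22. The limma fit of RPL22L1 minus RPL22 at the low dose, chosen after seeing the data, passed at -0.99 where the exact test could not. The causes of these shifts were not tested. With 2 high arrays and no measure of background, small changes and dim probe sets are not resolved.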

Other observations

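The 38 probe sets that name a ribosomal protein gene together with other symbols, left out above, showed a median log2 difference of -0.24 at the low dose and -0.37 at the high dose, with 34 of 38 differences negative at each. For the 53 members the medians were -0.18 and -0.31.

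Control 3 differed from the other controls member by member. It lay below both of them in 35 of 53 members, against 46.9% of all genes. The gap from the mean of control 1 and control 2 was most negative in RPL32 (-1.41) and RPS28 (-1.15), followed by RPL7 (-0.73), RPL12 (-0.71) and RPS15 (-0.64), and most positive in RPL39L (0.76). RPL32, RPL12, RPS28 and RPS15 also had negative differences of high minus low (-0.48, -0.52, -0.64 and -0.57), a comparison that uses no control array, while RPL7 had 0.25 and RPL39L, with its positive gap, had -0.67. Across members, which are not independent replicates, the gap of control 3 and the difference of high minus low correlated at r = 0.33 (Spearman's rho 0.36, n = 53), and across all genes at r = 0.48 (rho 0.43, n = 22109). Whether array brightness accounts for this was not tested.

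Probe sets of the same gene differed in sign for 3 members, with no test made. For high minus control, RPS28 had -0.50 on the probe set used and 0.34 on its other, and RPS27 had -0.18 and 0.08. Whether the probe sets used for RPS28 and RPS27 lie at these genes or at copies was not tested. RPS18 had -0.32 on the probe set used, -0.22 on 5 others, of which 4 carried identical values on every array, and 0.07 on the remaining one.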
